A study of Danio rerio with 6 samples.

Results

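Ribosomes are built in the nucleolus, where RNA polymerase I (Pol I) transcribes the long ribosomal RNA precursor. Small nucleolar ribonucleoproteins (snoRNPs) modify this precursor under the guidance of their RNAs, with box C/D particles adding methyl groups and box H/ACA particles making pseudouridine. The small subunit processome and a series of large subunit assembly factors then fold, cut and pack the RNA with ribosomal proteins. These genes are expressed in all cells and more strongly in dividing and secreting tissues, and zebrafish mutants of several of them are known for small eyes, small heads and poor growth of the digestive organs.

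The genes described here are the 44 rows of the deposited table, of 37898 in all, whose symbols begin with *utp*, *nop*, *rrp*, *noc* or *nol* and a digit (*nol4* genes left out) or with *polr1*, together with *fbl*, *dkc1*, *nhp2*, *gar1*, *pes*, *bop1*, *ncl* and *npm1a*. By their known roles, mostly worked out in yeast and human cells, 5 belong to Pol I, 17 to the small subunit processome, 3 to the box C/D core, 4 to the box H/ACA core and 13 to large subunit assembly, and 2 are abundant nucleolar proteins. They were spread over 21 chromosomes. RNA of whole zebrafish embryos at 4 days post fertilization was sequenced from 3 libraries of *sart3* smu471 mutants and 3 libraries of WT siblings, all from *sart3*+/- intercrosses and sorted by high-resolution melting genotyping. The smu471 allele is a chemically induced nonsense mutation predicted to remove the RNA recognition motifs of Sart3, a factor that recycles spliceosomal particles. The number of embryos in a library is not given in the sources used here, nor whether the libraries of a group came from separate clutches, so the p-values measure only the spread between these libraries.

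The libraries held between 16008788 and 18310233 reads counted on genes. Replicate libraries were not repeats of one another, since the chi-square of any pair of one group was 3.89 to 11.3 times its degrees of freedom, well beyond counting error. *sart3* itself (ENSDARG00000008032) had 1178, 1218 and 1246 counts in siblings and 923, 772 and 825 in mutants, a log2 fold change of -0.44 (SE 0.072, adjusted p = 0.0023). Of all rows, 24809 genes had enough counts for edgeR's quasi-likelihood test. At a Benjamini-Hochberg adjusted p under 0.05, 3368 of them (13.6%) were higher in mutants and 3556 (14.3%) were lower, 27.9% in all. With a limit of 1 on the absolute log2 fold change added, 8.32% were called.

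The ribosome biogenesis genes lay close to their sibling level as a list, and 7 of them passed the test. Of the 41 genes with enough counts, *nol7* was higher in mutants and *nop53*, *nop56*, *nop58*, *dkc1*, *gar1* and *rrp7a* were lower, while 34 did not pass the test. These 7 called genes were 17.1% of those tested, against 27.9% of all genes tested. By direction, 2.44% were higher and 14.6% lower, against 13.6% and 14.3% of all genes tested, so the share called lower was near the background. DESeq2 called 7 of 42 and limma-voom called 6. By edgeR 15 genes had an unadjusted p under 0.05, a looser limit at which the share of all genes was not counted. The median log2 fold change of the 41 genes was -0.071, against 0.0079 over all genes tested. Of the 41 values 27 were negative, beside 12207 of the 24809 over all genes tested. Changes were mostly small: 36 of 41 genes (87.8%) had an absolute log2 fold change under 0.5, against 68.0% of all genes tested. In 7 genes every mutant library lay above every sibling library, and in 12 every mutant library lay below, where 22.8% and 22.4% of all genes tested did so.

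**Figure D1:**
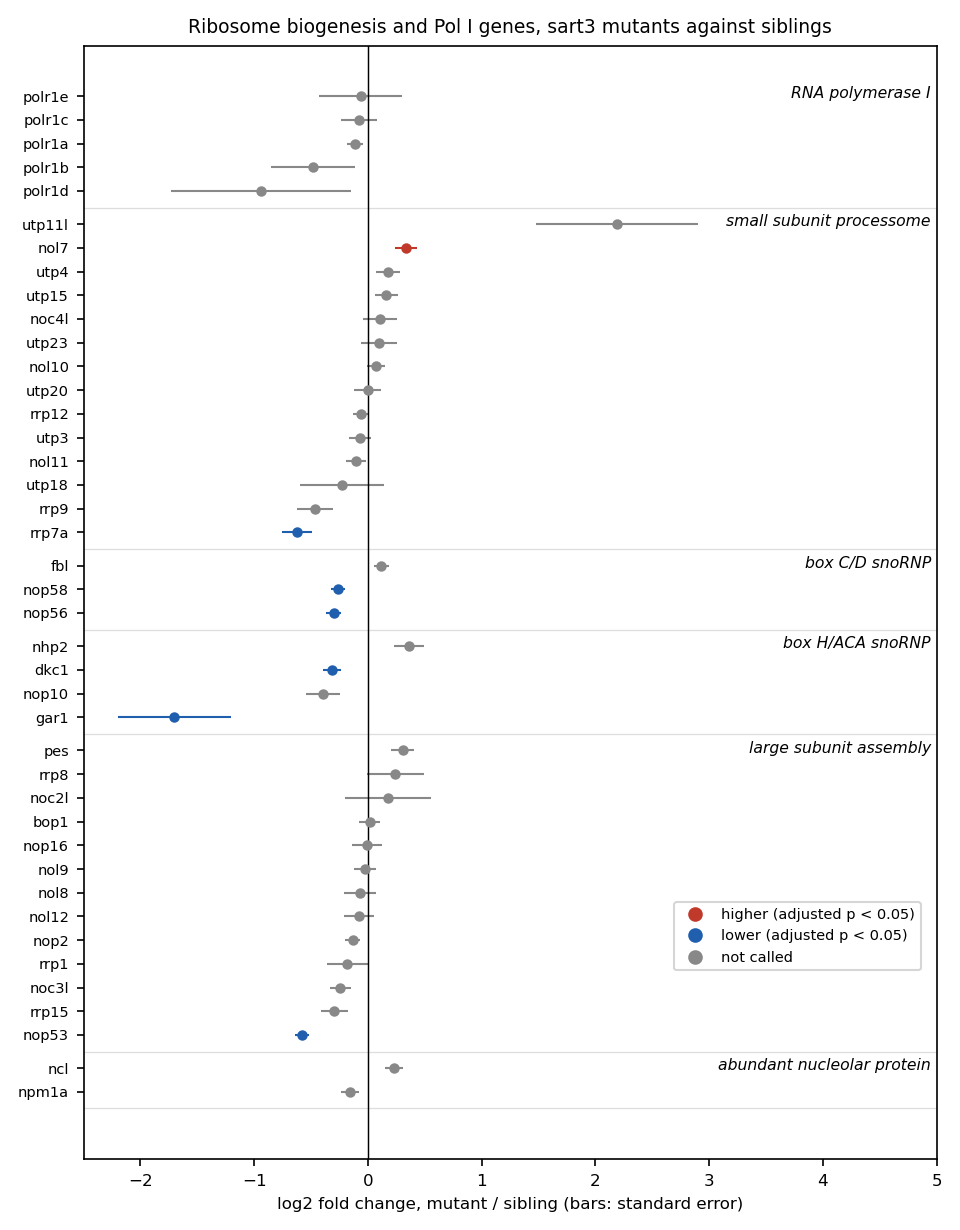
Log2 fold change between 3 mutant and 3 sibling libraries (x axis) for the 41 genes tested, grouped by role. Bars are 1 standard error, worked out from edgeR's coefficient and F statistic. Most points lie within 0.5 of 0, the 6 blue points are the genes called lower and the red point is *nol7*, the gene called higher.

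Summed over all 44 rows, the normalised read count (CPM, reads on a gene scaled to the TMM-corrected library size) came to 2154, 2030 and 2165 in siblings against 2161, 2133 and 1967 in mutants. The means were 2116 ± 75.1 (SD, n = 3) and 2087 ± 105 (SD, n = 3), and the groups overlapped. *ncl*, which encodes nucleolin, supplied 29.5% ± 1.02 of this sum in siblings and 34.9% ± 1.07 in mutants. Without *ncl* the sums came to 1515, 1454 and 1508 in siblings against 1385, 1387 and 1303 in mutants, 8.99% lower in the mean, with every mutant library below every sibling library. Much of this gap lies in 2 genes called lower, *nop56* (mean 206 and 167 CPM) and *nop53* (151 and 101). The sum without *ncl* was not among the planned comparisons. *ncl* had a mean of 624 CPM in siblings and 729 in mutants, so the separation depends on leaving it out. The sum without it is a description and no test of the list.

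Levels between genes were compared as FPKM, which divides a count by gene length, on the named rows of the table. Among the 41 genes the sibling mean ran from 0.441 (*utp11l*) to 173 (*ncl*), with a median of 10.6 against 4.02 over all genes tested. After *ncl* came *nop53* (94.2), *fbl* (84.9), *nop56* (61.5), *dkc1* (47.0) and *nop58* (46.8). Rows on alternate contigs of the assembly are left out of this order, and they bear on both ends of it. The alternate row of *utp11l* had a sibling FPKM of 6.46 and that of *npm1a* 32.5, beside 34.8 on the named row of *npm1a*.

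In the core of the box C/D particle, 2 of 3 genes were called lower and 1 was not called. Of all genes tested 14.3% were called lower, and 3 genes are too few to set against that share. *fbl*, encoding the methyltransferase fibrillarin, and *nop56* and *nop58*, encoding the paired scaffold proteins that hold fibrillarin on the guide RNA, act in one complex. *nop56* (ENSDARG00000012820, chromosome 21 from 11958758 to 11970199, GRCz11) had 3633, 3536 and 3799 counts in siblings and 3014, 2701 and 2651 in mutants. This was 206 ± 7.29 CPM (SD, n = 3) and 167 ± 8.11 CPM (SD, n = 3), a log2 fold change of -0.30 (SE 0.063, adjusted p = 0.0078), and the groups did not overlap. *nop58* (ENSDARG00000104353, chromosome 6 from 9664206 to 9695294) had 1936, 1828 and 1880 counts in siblings and 1578, 1449 and 1393 in mutants. All mutant libraries again lay below all siblings, with a log2 fold change of -0.26 (SE 0.064, adjusted p = 0.016). The call of *nop58* was lost without mutant library 2 or mutant library 3, where the log2 fold change was -0.28 and -0.22 (adjusted p = 0.051 and 0.055).

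*fbl* (ENSDARG00000053912) was not called. Its CPM was 125, 117 and 127 in siblings and 137, 135 and 127 in mutants, a log2 fold change of 0.12 that did not pass the test (SE 0.064, adjusted p = 0.21), although the lowest mutant library was just above the highest sibling. The ratio of *nop56* to *fbl* FPKM within each library was 0.705, 0.740 and 0.731 in siblings and 0.549, 0.538 and 0.539 in mutants. That of *nop58* to *fbl* was 0.555, 0.565 and 0.534 in siblings and 0.425, 0.427 and 0.418 in mutants. That both ratios separate follows from the non-overlapping values of the single genes, so the ratios are a description of their size and no test.

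Of the 4 box H/ACA genes, 2 were called lower and 2 were not called. This group too is small to set against the 14.3% of all genes tested that were called lower. *dkc1* (ENSDARG00000016484, chromosome 21 from 43702010 to 43716471) encodes dyskerin, the pseudouridine synthase, whose human gene is mutated in dyskeratosis congenita. It had 1668, 1593 and 1568 counts in siblings and 1311, 1247 and 1094 in mutants, 90.5 ± 2.67 and 72.9 ± 6.66 CPM (SD, n = 3). The fall was -0.31 on the log2 scale (SE 0.080, adjusted p = 0.020), and all mutant libraries were below all siblings. *nop10*, encoding a small core protein bound to dyskerin, had 360, 338 and 295 counts in siblings and 257, 260 and 192 in mutants. Its log2 fold change of -0.39 (SE 0.15, adjusted p = 0.086) did not pass, though the groups did not overlap on CPM.

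*nhp2*, the core protein that binds the guide RNA next to *nop10*'s product, had a positive value that did not pass. Its CPM was 30.1, 21.7 and 22.9 in siblings and 33.0, 32.9 and 30.3 in mutants, a log2 fold change of 0.36 (SE 0.13, adjusted p = 0.071). Sibling library 1 was close to the mutants, and without it the log2 fold change was 0.53 with an adjusted p of 0.0042. That was the 1 of 14 alternatives in which it was called, and over the others the value went down to 0.25 and the adjusted p up to 0.24. The FPKM ratio of *dkc1* to *nhp2* was 1.91, 2.55 and 2.37 in siblings and 1.41, 1.45 and 1.32 in mutants, and that of *nop10* to *nhp2* was 1.33, 1.75 and 1.44 against 0.895, 0.977 and 0.751. These ratios too are a description, since the single genes already did not overlap.

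*gar1* (ENSDARG00000076526, chromosome 14 from 43603993 to 43616572), the remaining core protein of the H/ACA particle, was the least abundant of the 4 and the most variable. It had 50, 186 and 62 counts in siblings and 32, 30 and 24 in mutants, a log2 fold change of -1.70 (SE 0.50, adjusted p = 0.035). Sibling library 2 stood 3.75 times above the lowest sibling on CPM. Without it the log2 fold change was -0.89 and the call was lost (adjusted p = 0.062), and it was also lost without each mutant library in turn (adjusted p = 0.088 to 0.099) and with limma-voom (-1.44, adjusted p = 0.093).

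**Figure D2:**
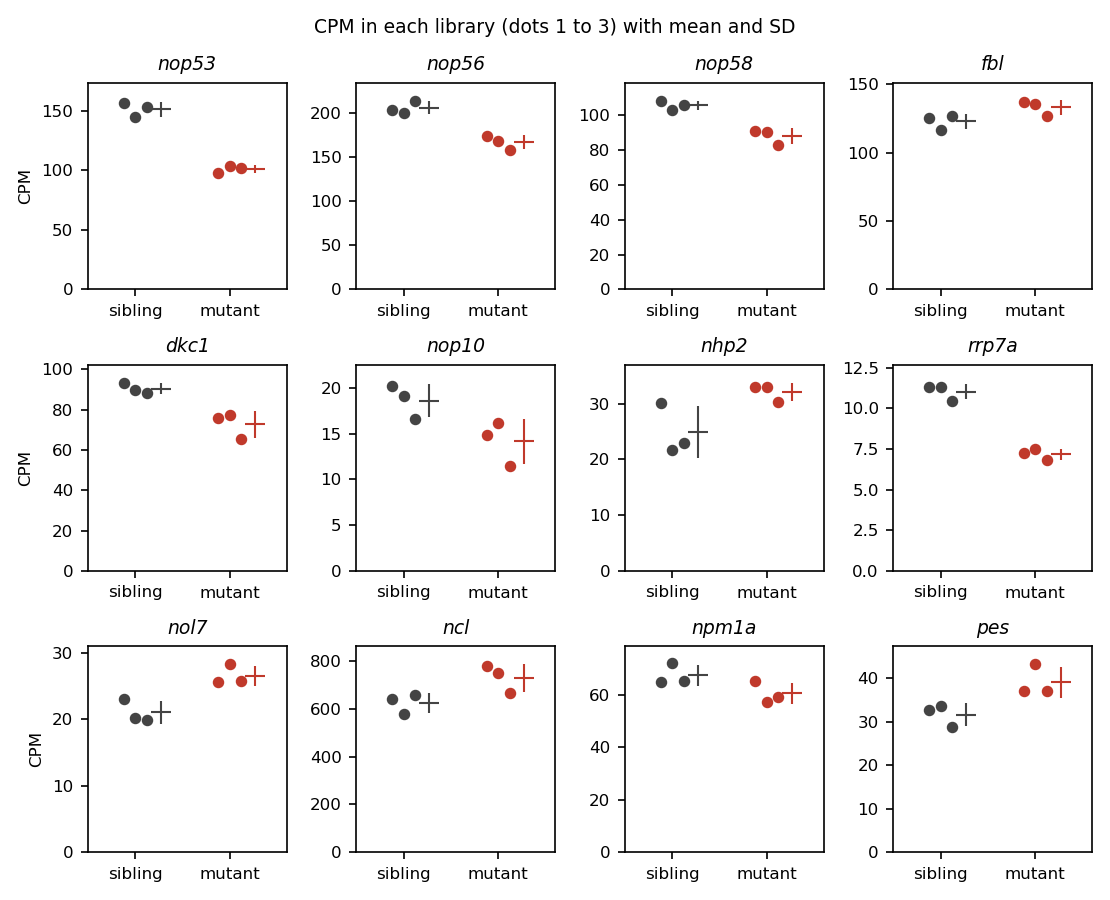
CPM of 12 genes in each sibling (grey) and mutant (red) library, with a cross at the mean and a bar of 1 SD (n = 3). The scaffold genes *nop56* and *nop58* and the synthase gene *dkc1* were lower in every mutant library than in any sibling. *fbl* and *nhp2* were slightly higher in every mutant library than in any sibling, and neither was called.

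Among 13 large subunit assembly genes, 1 was called lower and none higher (7.69% and 0%, against 14.3% and 13.6% of all genes tested). *nop53* (ENSDARG00000100452, chromosome 15 from 6652396 to 6666303), whose yeast counterpart brings the exosome to the spacer next to the large subunit RNA, had the smallest adjusted p of the 44. Siblings had 2795, 2560 and 2722 reads on it and mutants had 1690, 1671 and 1718. This was 151 ± 6.23 and 101 ± 3.30 CPM (SD, n = 3), 33.1% lower in the mean, with a log2 fold change of -0.58 (SE 0.062, adjusted p = 0.00026). It was called in each of 14 alternatives, with log2 fold changes between -0.63 and -0.55.

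The remaining 12 large subunit genes had log2 fold changes between -0.30 (*rrp15*) and 0.30 (*pes*), and none passed the test. Pescadillo, the product of *pes*, and the product of *bop1* are partners in a complex needed to process the large subunit RNA. *pes* had 581, 595 and 510 counts in siblings and 642, 693 and 619 in mutants, with no overlap on CPM and an adjusted p of 0.053 (log2 fold change 0.30, SE 0.10). *pes* lies on chromosome 5 from 12836913 to 12865386, 7.62 Mb from *sart3*, and was the gene of the 44 within 10 Mb of the mutation. Mutants and siblings differ there by selection, and genotype and linked alleles cannot be told apart for it. *bop1*, on chromosome 19, had 642, 559 and 583 counts in siblings and 545, 532 and 616 in mutants, a log2 fold change of 0.014 (SE 0.094). *nop2*, an rRNA cytosine methyltransferase gene and the uncalled large subunit gene with the highest count, had 870, 872 and 915 counts against 792, 735 and 748, a log2 fold change of -0.13 (SE 0.068, adjusted p = 0.18).

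In the small subunit processome the median log2 fold change of the 14 genes tested was 0.033, with 7 values on each side of 0. *rrp7a* (ENSDARG00000098934, chromosome 3 from 1219344 to 1222249), encoding a processome component, had 202, 200 and 186 counts in siblings and 125, 120 and 114 in mutants. Its CPM was 35.0% lower in mutants and its log2 fold change was -0.62 (SE 0.13, adjusted p = 0.0088), and the groups were well apart. *nol7* (ENSDARG00000075795, chromosome 2 from 31830183 to 31833347), whose human counterpart is also a processome component, had 412, 358 and 355 counts in siblings and 444, 455 and 433 in mutants. It was 26.1% higher in CPM, a log2 fold change of 0.33 (SE 0.10, adjusted p = 0.037), without overlap. This call was less secure, as it was lost with DESeq2 (adjusted p = 0.072), with every gene with a count kept (0.076) and without sibling library 2, sibling library 3 or any of the 3 mutant libraries (0.069 to 0.14).

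*rrp12*, required for export of the precursor in yeast and the processome gene with the highest FPKM (21.9 in siblings), had 1686, 1567 and 1734 counts in siblings and 1607, 1474 and 1421 in mutants, with overlapping groups and a log2 fold change of -0.059 (SE 0.069). *utp20*, encoding a very large scaffold protein, had a log2 fold change of -0.0022 (SE 0.12). Among subunits of the module that binds the nascent precursor, *utp4* gave 0.18, *utp15* 0.16 and *nol11* -0.10, none called. *rrp9*, encoding a protein specific to the U3 snoRNP, had 181, 136 and 153 counts in siblings and 111, 102 and 106 in mutants, without overlap (log2 fold change -0.47, SE 0.16, adjusted p = 0.057).

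None of the 5 Pol I genes was called by edgeR, DESeq2 or limma-voom, and 0 of them had an unadjusted p under 0.05. Over all genes tested edgeR called 27.9% at the adjusted limit, and 5 genes are too few to set against that share. The share of all genes at the unadjusted limit was not counted. All 5 values on the named rows were negative, with a median of -0.11, where 12207 of the 24809 genes tested had a negative value. Over the 14 alternatives *polr1c* ranged from -0.19 to 0.069 and *polr1e* from -0.38 to 0.27, so their signs were not stable. With alternate-contig rows added, *polr1e* gave 0.17 (SE 0.39) and *polr1b* -0.26 (SE 0.13), and neither was called. *polr1a*, encoding the largest subunit, had 944, 950 and 914 counts in siblings and 833, 757 and 856 in mutants, a log2 fold change of -0.11 (SE 0.069, adjusted p = 0.28) without overlap on CPM. *polr1c*, encoding a subunit shared with RNA polymerase III and the Pol I gene with the highest FPKM (9.02 in siblings), had 311, 228 and 242 counts against 226, 203 and 267, a log2 fold change of -0.077 (SE 0.16). These groups overlapped.

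*polr1d*, encoding the other shared subunit, differed between mutant libraries more than any of the other 40 genes. Siblings had 69, 97 and 107 reads on it and mutants had 13, 7 and 114, so that mutants 1 and 2 were far below the siblings and mutant 3 was above them. The log2 fold change was -0.94 (SE 0.79, adjusted p = 0.42) over all libraries and -3.09 (adjusted p = 0.0013) without mutant library 3. The highest mutant library was 15.6 times the lowest on CPM. The median over the 41 genes of the largest such fold within a group was 1.19, and 7 genes reached 2 or more, namely *polr1d*, *utp11l*, *gar1*, *utp18*, *polr1e*, *noc2l* and *polr1b*. These folds are of the named rows alone. With alternate-contig rows added, *utp11l* had 6.28, 8.36 and 7.48 CPM in siblings and 9.42, 9.15 and 9.42 in mutants. *polr1b* then had 13.3, 14.4 and 15.2 against 13.5, 10.8 and 11.6, and its named row held 15.2% to 30.7% of these reads. *polr1e* still ran from 3.16 to 8.07 in siblings.

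**Figure D3:**
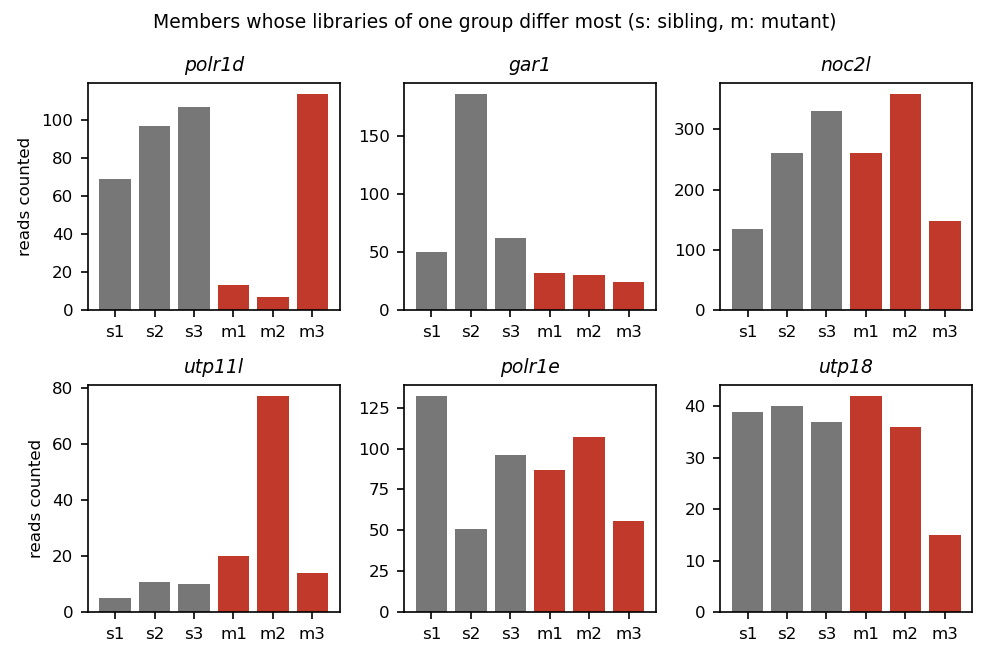
Reads counted on the named rows of 6 of the 7 genes whose libraries of one group differed by 2-fold or more on CPM. Siblings are grey (s1 to s3) and mutants red (m1 to m3). The outlying library differed from gene to gene, with mutant 3 high for *polr1d* and low for *utp18*, sibling 2 high for *gar1* and mutant 2 high for *utp11l*.

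The abundant nucleolar proteins gave values of opposite sign. *ncl* (ENSDARG00000002710), encoding nucleolin, had 11392, 10198 and 11688 counts in siblings and 13432, 12000 and 11143 in mutants. On CPM this was 624 ± 42.8 and 729 ± 57.9 (SD, n = 3), a log2 fold change of 0.22 (SE 0.079, adjusted p = 0.066), with mutant 3 only slightly above the highest sibling. Without mutant 3 the value was 0.29 and passed (adjusted p = 0.030), in 1 of 14 alternatives, which ranged from 0.15 to 0.29 (adjusted p = 0.030 to 0.25). *npm1a*, encoding nucleophosmin, had 1155, 1275 and 1162 counts in siblings and 1127, 923 and 990 in mutants, a log2 fold change of -0.15 (SE 0.079, adjusted p = 0.19). These groups overlapped on CPM.

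The table also holds rows on alternate contigs of the assembly, 3904 of 37898 rows with 5.95% to 6.39% of the counts of a library, and none of these rows carries a gene symbol. A search made after the values were seen found 10 such rows that carried the protein domain of one of the 44 genes, on the same chromosome number and strand and within 100 kb of its coordinates, for 9 of the 44 genes. *nol6*, *utp6* and *rrp36*, the 3 genes with too few counts for a test, were among them. On their named rows the counts were 0 to 1 for *nol6*, 1 to 8 for *utp6* and 0 in every library for *rrp36*.

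*nol6* encodes a scaffold protein of the processome with Nrap domains. The alternate row with these domains had 248, 213 and 210 counts in siblings and 319, 342 and 292 in mutants. It was higher in mutants and the groups did not overlap (log2 fold change 0.60, SE 0.13, adjusted p = 0.0089). The named row of *nol6* lies on chromosome 5, 30.4 Mb from *sart3*, and the part of linked alleles was not tested. The alternate row with the domain of *rrp36* had 86, 91 and 110 counts in siblings and 77, 74 and 56 in mutants (log2 fold change -0.38, adjusted p = 0.21). Added to its named row, *utp6* had 237, 272 and 198 counts in siblings and 256, 190 and 320 in mutants (log2 fold change 0.20, adjusted p = 0.49).

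For 6 other genes the reads were split between both rows. *utp11l*, a processome gene with 5, 11 and 10 counts in siblings and 20, 77 and 14 in mutants on its named row (log2 fold change 2.19, SE 0.71, adjusted p = 0.0505), had 112, 148 and 133 against 163, 147 and 158 with its alternate row added. The summed value was 0.34 (SE 0.15, adjusted p = 0.14). In mutant 2 the named row held 52.4% of the summed reads, against 4.46% to 12.3% in the other 5 libraries. *polr1e* had 58.4% on its named row in mutant 1 and 91.1% to 94.7% in the others. *rrp9*, summed to 305, 247 and 296 in siblings and 210, 191 and 187 in mutants, passed the test (log2 fold change -0.44, SE 0.13, adjusted p = 0.032). The sums of *npm1a*, *rrp8*, *polr1b* and *polr1e* were not called. How reads of one locus were divided between rows was not tested.

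**Figure D4:**
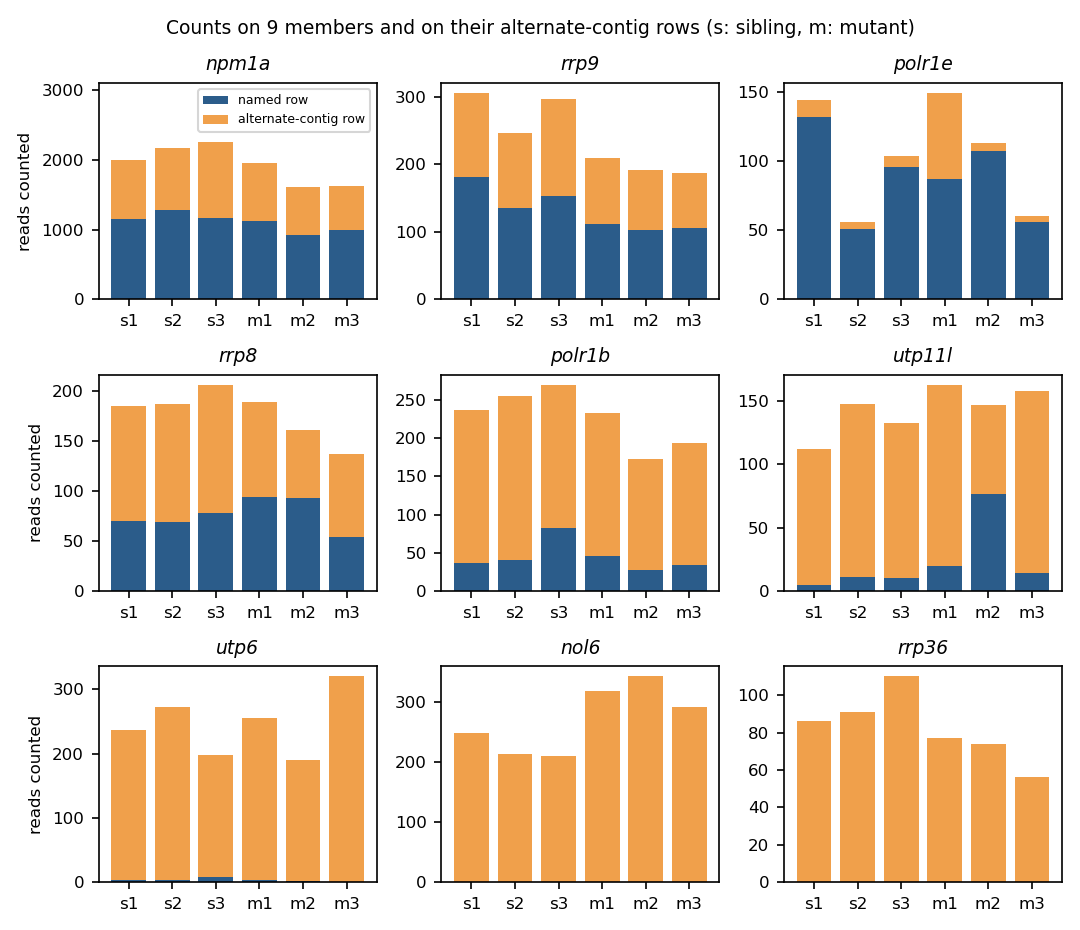
Reads counted on the named row (blue) and on alternate-contig rows with the same domain (orange) of 9 genes, by library (s1 to s3 siblings, m1 to m3 mutants). Nearly all reads of *nol6*, *utp6* and *rrp36* lie on the alternate rows, and the share on the named row of *utp11l* is far higher in mutant 2 than elsewhere.

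The rest of the pathway was read from 3 lists of 133 other genes, of which 128 were tested, 15 higher and 20 lower in mutants (11.7% and 15.6%, against 13.6% and 14.3% of all genes tested). Their median log2 fold change was -0.078, close to that of the 41 genes above. Among 103 further assembly factors, 13 were higher and 18 lower. Among those called, the largest falls were in *riok2*, encoding a kinase of late small subunit precursors, *shq1*, encoding a chaperone that loads dyskerin, and *ddx21*, encoding a nucleolar RNA helicase.

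*riok2* had 291, 243 and 228 counts in siblings and 41, 65 and 49 in mutants, a log2 fold change of -2.20 (SE 0.21, adjusted p = 0.00016). It lies on chromosome 5 from 41639693 to 41645058, the chromosome of *sart3*, and the part of linked alleles was not tested. *shq1* had 114, 96 and 98 against 45, 40 and 38, a log2 fold change of -1.23 (SE 0.19, adjusted p = 0.0019). *ddx21* had 4200, 3753 and 3749 against 2229, 1951 and 1955, a log2 fold change of -0.84 (SE 0.070, adjusted p = 7.1e-05). None of the 3 overlapped between the groups, and each differed by more than the called genes of the 44 other than *gar1*.

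Among genes called, the largest rises were in *rbm19*, encoding an RNA-binding processome protein, *cebpz*, the relative of yeast *NOC1*, and *nolc1*, encoding the snoRNP-binding nucleolar protein Nopp140. *rbm19* had 214, 177 and 223 counts in siblings and 396, 289 and 414 in mutants (log2 fold change 0.92, SE 0.15, adjusted p = 0.0025). *cebpz* had 855, 708 and 870 against 1375, 1458 and 1336 (0.87, SE 0.098, adjusted p = 0.00035). *nolc1* had 1612, 1428 and 1565 against 2291, 2166 and 2156 (0.61, SE 0.066, adjusted p = 0.00027). All mutant libraries lay above all siblings for each.

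The last list held Pol I initiation and termination factors, Myc genes and 3 Pol I subunit genes under older names (*twistnb*, *znrd1* and *cd3eap*). Of its 13 genes tested, 2 were higher and 2 lower (15.4% each, near the 13.6% and 14.3% of all genes tested). *rrn3*, whose product joins Pol I to its promoter, had 599, 505 and 598 counts in siblings and 944, 819 and 790 in mutants (log2 fold change 0.67, SE 0.097, adjusted p = 0.0013). *taf1b*, encoding a subunit of the promoter selectivity factor, had 172, 180 and 173 against 252, 284 and 315 (0.79, SE 0.13, adjusted p = 0.0029). Both were higher in every mutant library.

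*ubtf*, encoding the upstream binding factor of ribosomal DNA, had 3359, 3404 and 3635 counts in siblings and 2341, 2399 and 2653 in mutants (log2 fold change -0.40, SE 0.074, adjusted p = 0.0044). Its relative *ubtfl* had 1609, 1506 and 1668 against 1405, 1226 and 1208 (-0.23, SE 0.073, adjusted p = 0.046), a call that was lost in several alternatives. *myca*, *mycb*, *mych* and *mycn*, the Myc genes that in other vertebrates drive this pathway, had log2 fold changes between -0.046 and 0.22 and were not called.

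None of 12 rows of nuclear exosome genes, which trim the spacers of the precursor, was called by edgeR, DESeq2 or limma-voom. Over all genes tested edgeR called 27.9% at the adjusted limit. At the looser limit of an unadjusted p under 0.05 by edgeR, 4 of the 12 rows passed. The share of all genes at that limit was not counted, so the 4 rows cannot be set against 27.9%. Their median log2 fold change was -0.29 and 9 of 12 values were negative, beside 12207 of the 24809 over all genes tested. *exosc3* stands in this list, and so among the 133, both on chromosome 14 and on scaffold KN150491.1, with a negative value on each. *exosc9* had the most negative value of these, with 242, 179 and 236 counts in siblings and 156, 148 and 149 in mutants (log2 fold change -0.45, SE 0.15, adjusted p = 0.058).

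Alternative splicing was read from the events that rMATS gave as significant for the authors, 2075 events in 1574 genes by gene identifier. The paper gives the same number of events but more genes with alternative splicing, a difference whose cause was not tested. None of the 44 genes and none of their alternate-contig rows had an event, while 6.22% of the genes tested for expression had at least one. At so low a share, 44 genes are too few to read the count of 0 as a difference. The share is over genes of all levels, with a median sibling FPKM of 4.02 against 10.6 for the 41 genes. That among genes of a like level was not counted. Of the 133 other pathway genes 4 had an event, in *ubtfl*, *xrn2*, *c1d* and *ttf1*. In these tables mutant and sibling columns are told apart by the table names alone. *ubtfl* used an alternative 3′ splice site with inclusion levels of 0.760, 0.802 and 0.893 in siblings and 0.495, 0.567 and 0.760 in mutants. *xrn2*, encoding the exonuclease that trims the spacer ends, had a skipped exon with inclusion of 0.799, 0.859 and 0.674 in siblings and 0.447, 0.609 and 0.689 in mutants. Sibling and mutant ranges overlapped in all 4 events. The fewest junction reads behind an inclusion level were 10 for *ubtfl*, in its mutant value of 0.495, 78 for *xrn2*, 15 for *c1d* and 1 for *ttf1*.

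Whole embryos hold many tissues, and in such bulk samples fewer cells of a type and less RNA per cell cannot be told apart. Over all genes tested, 14.3% were called lower and 13.6% higher. Of 14 proliferation markers tested, 12 were lower in mutants and 1 higher, with a summed CPM of 1213 to 1312 in siblings and 843 to 908 in mutants. All 11 exocrine pancreas markers tested were lower, and their summed CPM was 4259 to 4495 in siblings and 80.6 to 106 in mutants. Lower calls also prevailed among markers of the intestine (5 lower and 1 higher of 7, summed CPM 0.73 of the sibling level). Neural progenitors had 6 lower and 1 higher of 11 (0.72), and photoreceptors 9 lower and 0 higher of 11 (0.35). The higher ones were *apoa1a* of the intestine (log2 fold change 0.67, adjusted p = 0.0013) and *sox19a* of neural progenitors (0.58, adjusted p = 0.0060). Both lie on chromosome 5, the chromosome of *sart3*, as does *ccnb1*, the proliferation marker called higher. There *sox19a* starts at 24199180 and *sart3* at 20453874. Markers called lower, such as *ela3l* and *ckma*, also lie on this chromosome. The part of linked alleles was not tested. Of 12 rows of liver markers, 4 were lower and 1 higher (summed CPM 0.86 of the sibling level). Of 12 rows of skeletal muscle markers, 9 were higher and 2 lower (1.28). The higher liver row was *hp* on chromosome 7, with 0, 0 and 3 counts in siblings and 17, 17 and 17 in mutants. The *hp* row on chromosome 8 was lower. Likewise *myhz1.1* was higher on its chromosome 5 row and lower on its chromosome 22 row. None of 6 red blood cell markers was called by edgeR, DESeq2 or limma-voom, and none had an unadjusted p under 0.05 by edgeR. The share of all genes at that unadjusted limit was not counted. The summed CPM of these markers ran from 208 to 783 in mutants and from 307 to 406 in siblings. Of the markers written, 1 row, the red blood cell gene *hbbe3*, was at 0 in every library. The part of these tissue differences in the values of the ribosome biogenesis genes was not tested.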

How the data were processed

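Total RNA of whole embryos was extracted with TRIzol and made into libraries with the NEBNext Ultra RNA kit. Per the submitters' processing notes, which give no order or settings, HISAT2 2.0.5, featureCounts 1.5.0-p3 and the GRCz11 build were used. The authors deposited counts, the unnormalized number of reads on each of 37898 genes per library, and FPKM, which the authors made from counts, gene length and depth. They also deposited rMATS tables of significant splicing events, of which the junction reads and inclusion levels were read and the authors' p-values, FDR and differences were not used. The mutant and sibling columns of these tables were taken from the table names. No row lacked a gene, 5499 rows had no count, and 0 columns belonged to other samples. Strand use in counting is not given in the sources used here.

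Counts were tested with edgeR 4.0.16 (R 4.3.3): filterByExpr, TMM factors (0.975 to 1.01), common dispersion 0.0274, quasi-likelihood F test, Benjamini-Hochberg adjustment over 24809 genes, and a threshold of 0.05. Every adjusted p comes from this test unless another tool is named. The SE beside a log2 fold change is not an output of this test. It was worked out as the absolute log2 coefficient divided by the square root of the F statistic. CPM is a count scaled to the TMM-corrected library size. Counts for this comparison were also simulated over 24809 genes, with the dispersion of 0.0274 for every gene. There edgeR recovered 74 of 100 genes changed 2-fold and 97 of 100 changed 4-fold, with 11 unchanged genes called. Far fewer genes were changed than were called in the data. Changes under 2-fold, as in most of the genes described here, were not simulated. Ratios of FPKM are given as a description. An exact permutation test over the 6 libraries gave p = 0.1 for each ratio, the smallest value it can reach, and nothing was drawn from it. Alternatives were DESeq2 1.42.0, limma-voom (limma 3.58.1), RLE or upper-quartile factors, no filter beyond 1 read in any library, a filter of 10 reads in all libraries, the replicate number as a block, leaving out each of the 6 libraries, and, for numbers of genes, a further limit of 1 on the absolute log2 fold change. A sum of named and alternate-contig rows was added after the data were seen. Tables were read with Python 3.11.15 and pandas 2.3.3.

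Values per library are given, in each role group, for the 2 largest rises and falls among called genes, the gene with the highest FPKM and the uncalled gene with the highest count, for genes within 10 Mb of *sart3*, for the 3 largest rises and falls among called genes of each pathway list and for *sart3*. Further genes with values per library, the Myc genes, *exosc9* and the alternate-contig rows were named after their values were seen. The genes, the pathway and marker lists and the role groups were chosen with earlier results of these data known, and the lists were written from memory.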

Additional observations from a re-analysis of the deposited data

How the results depend on the processing

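Across 14 alternatives *nop53*, *nop56*, *dkc1* and *rrp7a* were called in each, *nop58* in 12, *gar1* in 9 and *nol7* in 6, and no called gene changed sign. Of the uncalled genes, 14 changed sign in at least 1 alternative. The number of the 44 genes called higher, 1 in the main test, was 2 with RLE factors, 2 with at least 10 counts in every library and 2 with alternate-contig rows added. It ranged from 0 to 2 with each library left out in turn, and the number called lower from 4 to 7. The 15 other pathway genes called higher ranged from 8 to 15 and the 20 called lower from 11 to 24 over the same 6 fits, falling to 8 higher without sibling 2 or mutant 1, 9 without mutant 2 or mutant 3, and to 11 lower without mutant 2 and 13 without sibling 3 or mutant 3. With a limit of 1 on the absolute log2 fold change, 2063 genes of the table, 0 higher and 1 lower of the 44 (*gar1*), and 0 higher and 2 lower of the other pathway genes (*riok2* and *shq1*) remained. The causes were not tested, apart from the fewer libraries and stricter limits these settings have by construction. Some uncalled genes passed the test in an alternative: *utp11l* with DESeq2 (2.21, adjusted p = 0.013), RLE factors (2.19, 0.048), every gene with a count (2.18, 0.041) and without mutant 3 (2.58, 0.027), *noc3l* without sibling 1 (-0.29, 0.040), *rrp9* without sibling 2 (-0.58, 0.047) and *pes* with at least 10 counts in every library (0.31, 0.0499). The median log2 fold change of the 41 genes ranged from -0.12 to -0.019 with each library left out, and that of all genes tested from -0.0051 to 0.030 over the alternatives.

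Same-numbered libraries did not deviate together from their group means (correlations 0.046, 0.022 and -0.099). Whether they shared a clutch or batch is not given in the sources used here, and these correlations cannot settle it. With the replicate block 7 of the 44 genes were called: *nol7* was lost (0.34, adjusted p = 0.071) and *utp11l* was gained (1.93, 0.042), and *ubtfl* was also lost (-0.23, 0.081). Stricter limits on splicing events could not change a count of 0 and were not run. With 30 or fewer counts in at least 1 library, 8 of the 44 genes had little precision.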

Other observations

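Several genes of the pathway stand in the table under older or clone-based names and so lie outside the naming rule, although *diexf*, *twistnb*, *znrd1* and *cd3eap* were counted in the pathway lists. By current reference symbols these rows are *diexf* (UTP25), *twistnb* (POLR1F), *znrd1* (POLR1H), *cd3eap* (*polr1g*), si:dkey-251i10.3 (UTP14C) and CABZ01079760.1 (*nop14*). None was called by edgeR's quasi-likelihood test, and their log2 fold changes lay between -0.15 and 0.098. *twistnb*, encoding a stalk subunit of Pol I, had 354, 327 and 341 counts in siblings and 310, 328 and 227 in mutants (-0.15, SE 0.15, adjusted p = 0.51), with overlapping groups. *cd3eap*, encoding another Pol I subunit, had 257, 264 and 275 against 246, 264 and 290 (0.098, SE 0.12, adjusted p = 0.58).

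An unnamed row at the start of chromosome 9 (74 to 2003) whose deposited annotation is a Nop52 domain had 136, 122 and 101 counts in siblings and 60, 64 and 72 in mutants. It was lower in mutants, with no overlap between the groups (log2 fold change -0.78, SE 0.19, adjusted p = 0.017). The Nop52 domain is that of the *RRP1* family. The named *rrp1* row lies on the same chromosome from 145093 to 153070 and was not called (-0.18, SE 0.18, adjusted p = 0.50). The row was found after the values were seen.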
